A study of Rattus norvegicus with 16 samples.

Results

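The comparison set the right hippocampus of rats 15 days after an iron infusion into the amygdala against that of rats 5 days after it. Its members were the 4 Fe day 15 arrays and the 4 Fe day 5 arrays, chosen by their labels, and they made up 8 of the 16 arrays of the series. All 8 came from male Wistar rats in which a guide cannula was placed at the right amygdala under pentobarbital anesthesia at 5 weeks of age. Through it, 5 days later, each rat received 1 µl of 100 mM FeCl3 in saline at pH 2.2. The day 5 rats were labelled as the acute phase and the day 15 rats as the sub-chronic phase, a division that the series text bases on electroencephalograms. The 4 control rats, which received saline of the same pH and were collected on day 15, served only as a reference range, and 4 Fe rats collected on day 30 were not compared. Recurrent seizures were observed in the Fe rats, but their rate was not measured, so animals of a group may differ in seizure load. Some rats, randomly chosen, also carried a guide cannula for microdialysis, and the labels used here do not say which. The treatment label speaks of mice, while every sample is recorded as rat. Age and time since infusion differed together between the groups, and with no saline rats of day 5 they cannot be told apart.

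Ferric chloride in the amygdala is a model of epilepsy after bleeding into the brain, in which iron released from hemoglobin drives lipid peroxidation and seizures arise from the injected site and spread through limbic circuits. The hippocampus receives direct input from the amygdala, and in it strong firing switches on immediate early genes within minutes and neurotrophins and other effector genes later. Seizures and surgery also raise circulating corticosteroids, which act on the hippocampus through receptors that are abundant there, and injury calls up chaperones, activated microglia, reactive astrocytes and new blood vessels.

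Values are the log2 of the processed signal minus the 75th percentile of the same array, so that 0 marks the brightness of a fairly bright spot and 1 unit is a doubling. They compare arrays at 1 probe and not probes with each other. On the 8 arrays the 75th percentile of the signal ranged from 596 to 924, between 74.7% and 81.6% of transcript spots were well above background, and no spot was saturated. Correlations over all features ranged from 0.981 to 0.991 among day 5 arrays, from 0.982 to 0.992 among day 15 arrays and from 0.978 to 0.994 between the groups, and among controls from 0.993 to 0.995. C1ql2 and Prox1 of dentate granule cells and Wfs1 of CA1 were each above background on all 8 arrays. So were 26618 of the 27628 features tested, so this does not test the identity of the tissue. The 8 arrays lay on 7 slides. Only Fe day 5 replicate 1 and Fe day 15 replicate 4 shared a slide, so the difference within that slide is a single pair without a test. On their slides, 3 of the 4 day 5 arrays took position 1, and the other day 5 array and all 4 day 15 arrays took position 2. Nothing in the labels says how rats were assigned to days, and p-values measure the spread among these 4 rats a group.

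No gene passed the test between day 15 and day 5. Across 27628 features, of which 9518 had a gene symbol, limma called 0 at an adjusted p under 0.05 (0.00%), and the lowest adjusted p was 0.367. At an unadjusted p under 0.05 there were 866 features higher at day 15 (3.13%) and 759 lower (2.75%). All 4 day 15 values lay above all 4 day 5 values in 571 features (2.07%) and below them in 463 (1.68%). The median difference over all features was 0.01, with 53.6% of features above 0. The median standard error was 0.13, so that a typical gene needed a difference of 0.30 for an unadjusted p of 0.05. Differences beyond 1 log2 unit were found in 207 features, 58 higher and 149 lower at day 15, but in only 26 of them (12.6%) did the groups not overlap. In 98 of the 207 (47.3%) the value farthest from the rest was that of 1 rat, Fe day 5 replicate 2. Everything that follows is therefore a description of values, and no gene below passed the adjusted threshold.

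**Figure D1:**
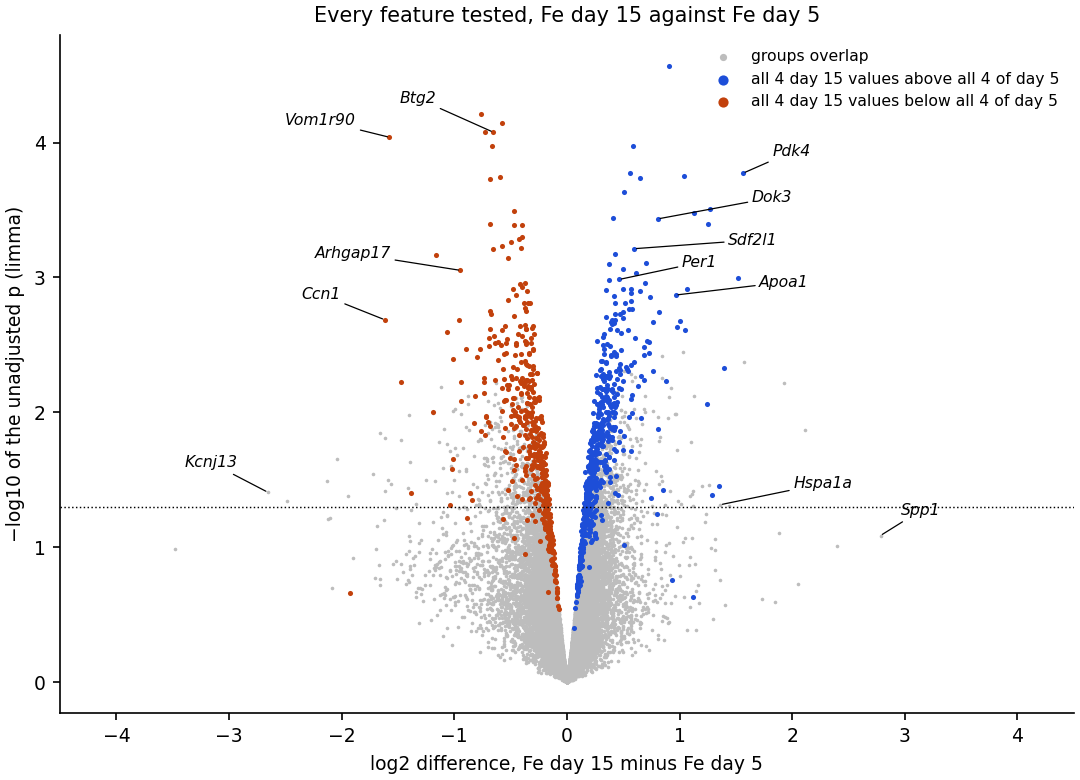
Difference between day 15 and day 5 for each of 27628 features (horizontal axis, log2) against −log10 of limma's unadjusted p (vertical axis), with a dotted line at 0.05. Coloured points are features whose 4 values a group did not overlap, and the widest differences, such as those of Kcnj13 and Spp1, lay among the grey points whose groups overlapped.

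Among named genes without overlap, 12 were highest in the ranking by unadjusted p on the side of day 15. Pdk4, the kinase that shuts pyruvate dehydrogenase and spares glucose, had the widest difference of these. Its log2 values were -6.21, -6.48, -6.14 and -6.53 in the day 5 rats and -4.66, -4.78, -4.22 and -5.44 in the day 15 rats. All 4 day 15 values lay above the control range of -7.17 to -5.54, while day 5 lay within it, and the difference was 1.57 ± 0.24 (SE, n = 4 a group; limma adjusted p = 0.367). The probe was dim, was above background on only 3 day 5 arrays and entered through day 15. Its difference was 0.45 under normexp background correction, 0.62 with the slide as a fixed block in a fit of all 16 arrays and 0.77 within the shared slide. Per1, a repressor of the circadian clock that corticosteroids and neuronal firing also switch on, stood at -0.14, -0.07, -0.07 and -0.04 at day 5. At day 15 it stood at 0.41, 0.33, 0.60 and 0.22, a difference of 0.47 ± 0.09 (limma adjusted p = 0.656) that was 0.27 with the slide fixed. Here the day 5 rats were all below the control range of 0.11 to 0.26, and 3 of the 4 day 15 rats were above it.

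Sdf2l1 encodes a chaperone partner of BiP in the endoplasmic reticulum. It measured 0.51, 0.59, 0.47 and 0.55 at day 5 and 1.31, 1.25, 1.13 and 0.84 at day 15, against 0.41 to 0.76 in the controls. Day 5 was thus inside the control range and day 15 above it, with a difference of 0.60 ± 0.11 (limma adjusted p = 0.547). Apoa1, the main protein of high-density lipoprotein, read -4.34, -4.32, -4.30 and -4.18 at day 5 and -3.49, -2.81, -3.12 and -3.84 at day 15. Both groups were above the controls (-4.61 to -4.41), day 15 by more, and the difference was 0.97 ± 0.20 (0.61 under normexp). Dok3, an adaptor that restrains signalling in B cells and myeloid cells, read -2.32, -2.12, -2.79 and -2.31 at day 5 and -1.50, -1.64, -1.63 and -1.54 at day 15. Its day 15 values were tightly grouped above the controls (-2.66 to -2.42), and the difference was 0.81 ± 0.14. Acvr1b, a receptor for activin, was higher by 0.48 ± 0.11, with day 5 below the control range and the day 15 values reaching from inside it to above it. The other 6 were Acrbp, Lmbr1l, Tmem202, Cfap141, Ccdc117 and Gdf9, with differences from 0.41 for Tmem202 to 0.82 for Gdf9 (0.46 under normexp). Tmem202 lay below the controls at day 5 and near them at day 15, whereas Acrbp and Cfap141 lay near them at day 5 and above them at day 15.

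**Figure D2:**
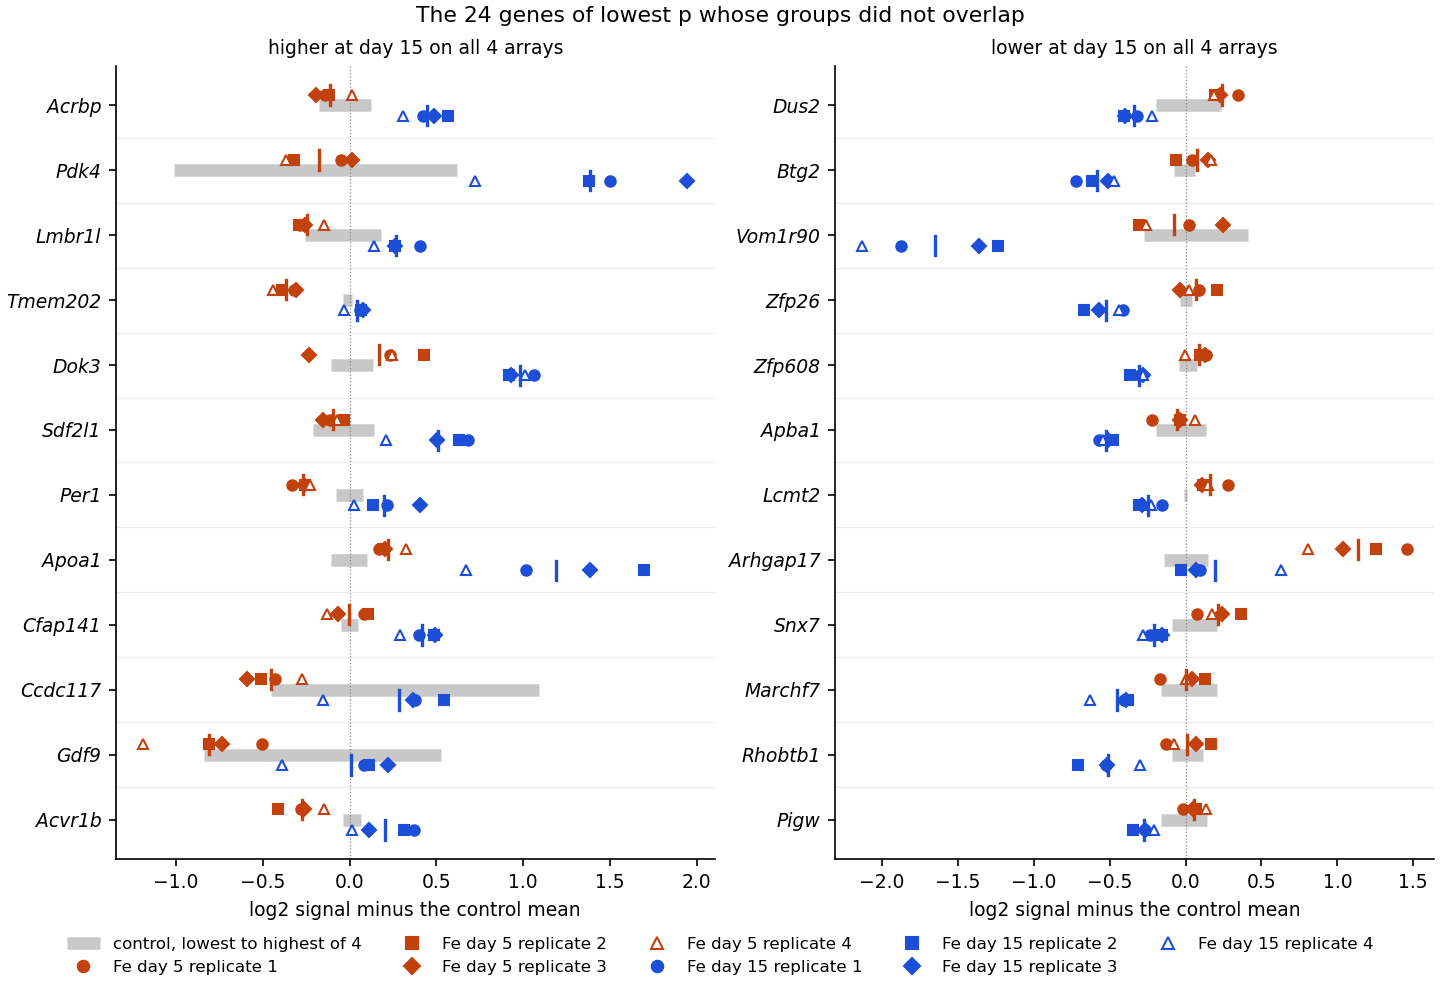
Log2 signal of each array minus the control mean (horizontal axes) for the 12 named genes of lowest p on each side; points are single rats, vertical bars group means and grey bars the range of the 4 controls. Day 15 stood away from the controls for Pdk4, Dok3, Btg2 and Zfp26, and for Apoa1 both days stood above them. For Tmem202 it was day 5 that stood below them and for Arhgap17 day 5 that stood above them. For Per1 day 5 stood below them and most day 15 rats above them.

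On the side of lower values at day 15, Btg2 was among the genes of lowest p. It is an antiproliferative immediate early gene that speeds the removal of poly(A) tails. Its log2 values were 1.14, 1.03, 1.24 and 1.26 at day 5 and 0.37, 0.47, 0.58 and 0.62 at day 15. Day 5 sat at or just above the controls (1.02 to 1.15) and all day 15 rats were far below them, a difference of -0.65 ± 0.09 (limma adjusted p = 0.367) that was -0.37 with the slide fixed. Dus2, which makes dihydrouridine in transfer RNA, measured 2.48, 2.33, 2.36 and 2.32 at day 5 and 1.81, 1.73, 1.73 and 1.91 at day 15, with controls from 1.94 to 2.37. The difference was -0.58 ± 0.08 (limma adjusted p = 0.367), and its other probe gave -0.77. Arhgap17, a GTPase-activating protein, went the other way relative to saline. It read -0.45, -0.66, -0.87 and -1.11 at day 5 and -1.82, -1.94, -1.84 and -1.28 at day 15, and the controls ran from -2.05 to -1.76. All day 5 rats were above the controls and 3 of the 4 day 15 rats were within their range, with a difference of -0.95 ± 0.19 (limma adjusted p = 0.645).

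Vom1r90, one of a large family of near-identical vomeronasal receptor genes, was not well above background on any of the 4 day 15 arrays. Its measured means differed by -1.58, but the probe entered only through day 5. With dim day 15 values raised to the lowest signal well above background on each array, day 5 was 1.16-fold higher. Under normexp the means differed by only -0.02, so the 1.16-fold is not a minimum. Apba1, an adaptor that binds the amyloid precursor protein at synapses, was lower by 0.47 on the log2 scale (-0.47 ± 0.08), with every day 15 value below the controls. Zfp26 and Zfp608, both zinc finger proteins, differed by -0.59 ± 0.09 and -0.40 ± 0.07, again with day 15 below the controls. Under normexp the differences of Apba1 and Zfp26 were -0.26 and -0.32. The remaining 5 were Lcmt2, Snx7, Marchf7, Rhobtb1 and Pigw, and their differences ran from -0.52 for Rhobtb1 to -0.33 for Pigw. Lcmt2 takes part in transfer RNA modification, Snx7 in endosomal sorting, Marchf7 in ubiquitination and Pigw in making the lipid anchor of surface proteins.

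The stretches of 250 bases before the start site of 5 genes are shown because these genes differed without overlap between the days and stand for the hormone, clock, chaperone, activity and matrix groups described next. They are RefSeq sequences on the build GRCr8, written 5′ to 3′ on the strand of the gene, from the first start listed for each. Capitals mark matches on either strand to 6 motifs. These were the cyclic AMP response element TGACGTCA, the clock motif CACGTG, called the E-box, the letters TATAAA of the core promoter, the glucocorticoid response element, the heat shock element and the CCAAT box, which reads ATTGG on the other strand. Per1 lies at chr10:54304126-54304375 on the plus strand, Pdk4 at chr4:34568330-34568579 on the minus strand and Btg2 at chr13:48087691-48087940 on the minus strand. Ccn1 lies at chr2:237225690-237225939 on the minus strand and Sdf2l1 at chr11:97376628-97376877 on the plus strand.
Per1: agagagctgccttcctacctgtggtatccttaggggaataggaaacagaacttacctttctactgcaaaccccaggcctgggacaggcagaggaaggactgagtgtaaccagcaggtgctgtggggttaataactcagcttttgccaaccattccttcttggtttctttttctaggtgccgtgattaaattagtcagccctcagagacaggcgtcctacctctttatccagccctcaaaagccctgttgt
Pdk4: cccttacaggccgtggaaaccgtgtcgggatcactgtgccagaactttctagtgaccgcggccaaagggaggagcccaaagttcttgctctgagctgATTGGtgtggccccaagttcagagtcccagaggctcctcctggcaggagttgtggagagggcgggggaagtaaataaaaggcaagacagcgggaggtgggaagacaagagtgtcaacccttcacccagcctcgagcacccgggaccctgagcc
Btg2: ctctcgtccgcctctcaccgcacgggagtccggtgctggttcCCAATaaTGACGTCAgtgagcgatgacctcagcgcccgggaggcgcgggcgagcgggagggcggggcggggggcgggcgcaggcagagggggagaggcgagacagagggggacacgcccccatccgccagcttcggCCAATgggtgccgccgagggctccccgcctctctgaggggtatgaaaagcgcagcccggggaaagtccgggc
Ccn1: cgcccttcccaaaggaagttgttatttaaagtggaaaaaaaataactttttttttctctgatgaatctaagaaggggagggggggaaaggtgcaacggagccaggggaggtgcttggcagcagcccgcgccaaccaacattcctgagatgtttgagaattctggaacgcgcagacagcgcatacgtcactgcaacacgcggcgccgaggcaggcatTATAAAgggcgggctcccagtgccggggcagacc
Sdf2l1: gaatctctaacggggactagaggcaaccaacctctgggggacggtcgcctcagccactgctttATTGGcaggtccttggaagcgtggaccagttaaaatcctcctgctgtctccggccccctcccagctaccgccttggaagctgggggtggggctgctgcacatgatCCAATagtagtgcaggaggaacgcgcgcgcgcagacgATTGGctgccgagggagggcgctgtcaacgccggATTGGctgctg
Btg2 held the full cyclic AMP response element, from 201 to 194 bases before the start, together with CCAAT boxes at 208 to 204 and 72 to 68. Of 33469 promoters in the table, 1.59% held that element. In the window of Ccn1 there was a TATA box from 34 to 29 bases before the start, a motif in 12.9% of promoters. Sdf2l1 held 4 CCAAT boxes, at 187 to 183, 82 to 78, 45 to 41 and 11 to 7, while 34% of promoters held at least 1. The CCAAT box is only a part of the endoplasmic reticulum stress element, and the full element was not searched for. Pdk4 held 1 CCAAT box at 153 to 149, and the window of Per1 held none of these letters. Across the gene groups, the cyclic AMP element was found in 3 of 17 immediate early genes with a sequence (17.6%), namely Btg2, Dusp1 and Ier2. The heat shock element was found in 4 of 14 chaperone genes (28.6%; 0.663% of all promoters) and the E-box in 3 of 13 clock genes (23.1%; 5.59% of all). The glucocorticoid element was in 0 of 14 corticosteroid target genes (0.012% of all). A match is a description of letters and not of a bound site.

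Groups of genes are summarised below by a score on each array, the median over the measured members of the value minus the member's mean over the 8 arrays. Over the 41 lists, 686 distinct genes were measured. Of these, 11 lay wholly higher at day 15 (1.60%) and 10 wholly lower (1.46%), shares near or below those of all features. Most lists held 0 or 1 such gene; the most were 4 of 25 immediate early genes on the lower side and 3 of 17 corticosteroid targets on the higher side, counts that were not tested. None of the 41 lists held a called gene. Many medians rested on single rats: leaving out Fe day 15 replicate 1 turned the sign of 14 of the 41, and leaving out Fe day 5 replicate 2 that of 12. In 2 lists, choroid plexus and meninges, every measured member was lower at day 15, and in 1 list, cytosolic heat shock, every member was higher. In whole hippocampus, fewer cells of a type and less RNA per cell cannot be told apart.

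**Figure D3:**
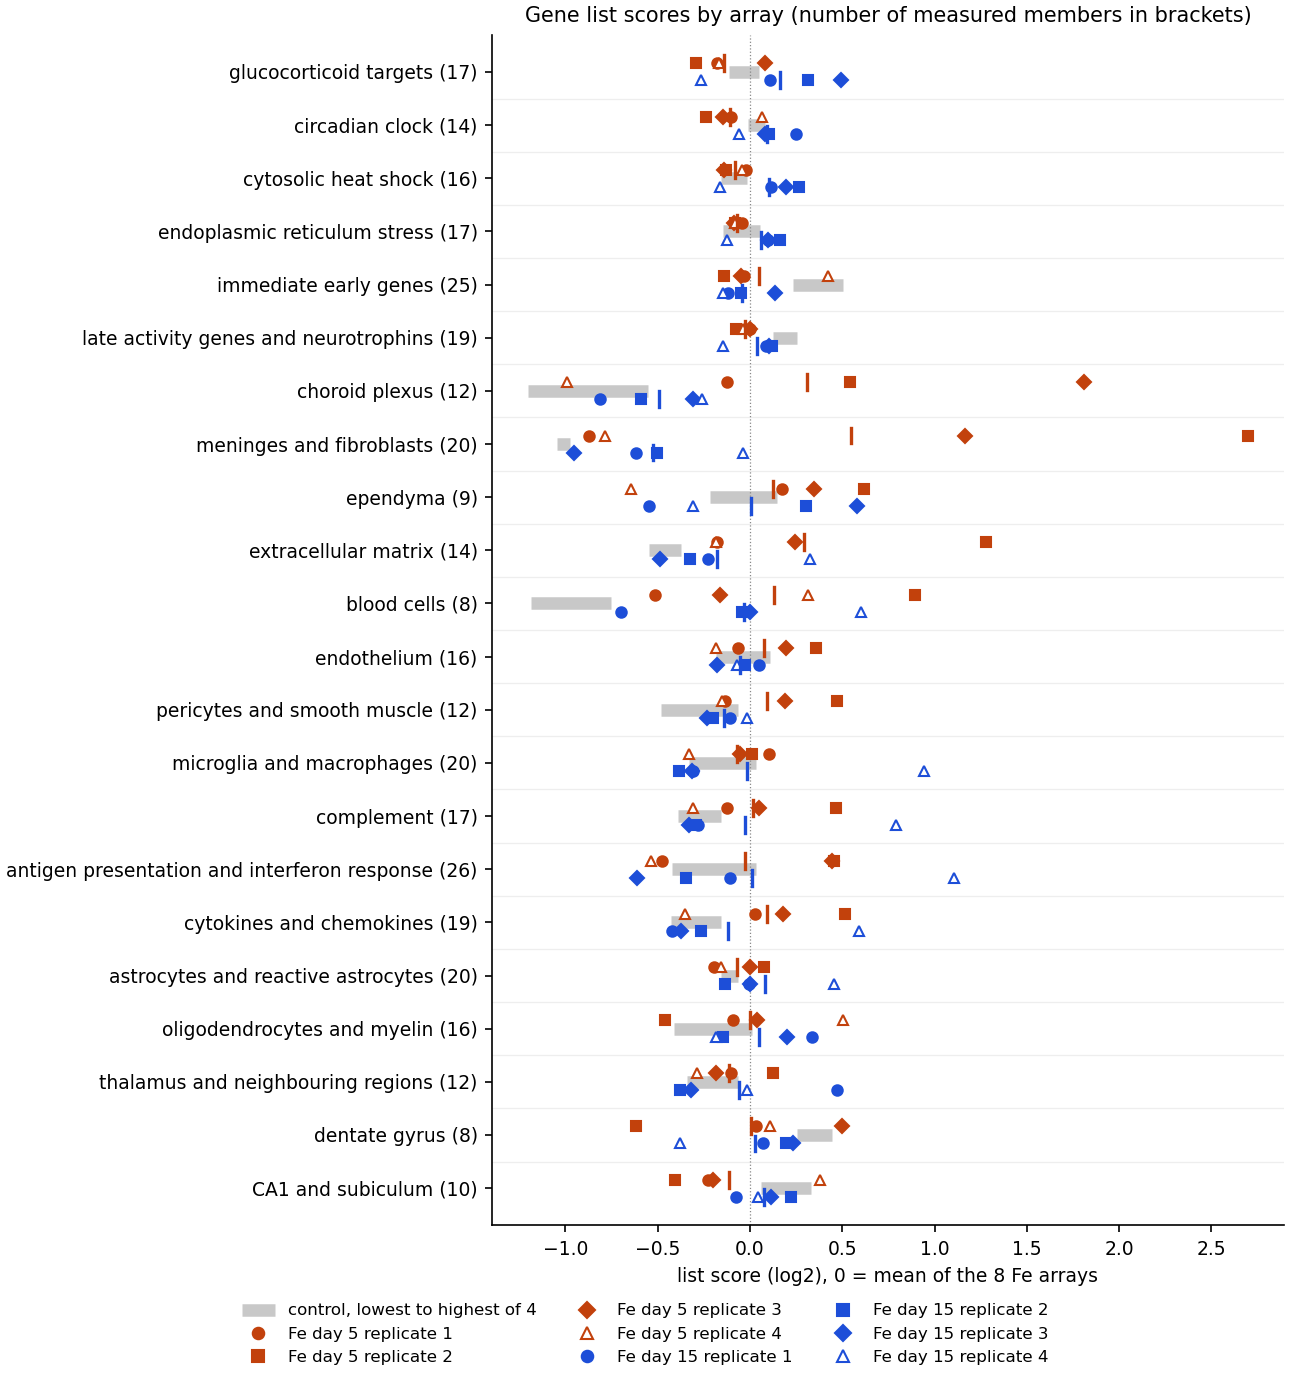
Score of each gene list on each array (horizontal axis, log2, with 0 as the mean of the 8 Fe arrays); points are single rats, vertical bars group means and grey bars the range of the 4 controls. The choroid plexus and meningeal scores of Fe day 5 replicates 2 and 3 reached 1.81 and 2.70, and the immune scores of Fe day 15 replicate 4 reached 1.11, each apart from the other rats of its group.

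Corticosteroid target genes stood higher at day 15 in 3 of the 4 rats. Of 17 measured, 12 were higher at day 15 and 5 lower, with differences from -0.41 to 1.57. The median difference was 0.34 against 0.01 for all features. Of the 17, 3 lay wholly higher, Pdk4, Tsc22d3 and Per1, against 2.07% of all features. Pdk4 entered the comparison only through day 15. Among the 16 members above background on all 8 arrays, 11 were higher and the median was 0.30. The genes named below are all on the higher side. The array scores were -0.18, -0.29, 0.08 and -0.17 at day 5 and 0.11, 0.31, 0.49 and -0.26 at day 15, with controls from -0.11 to 0.05. Fe day 15 replicate 4 was thus at the level of day 5, and the other 3 were above every control. Tsc22d3, the leucine zipper that carries much of the anti-inflammatory action of glucocorticoids, measured 3.22, 3.04, 2.53 and 3.00 at day 5. At day 15 it measured 3.41, 3.36, 3.62 and 3.30, all above the controls (2.56 to 3.23), a difference of 0.47 ± 0.15 (limma adjusted p = 0.754), while its second probe gave 0.19. Sgk1, a kinase of ion transport induced by corticosteroids, read 1.77, 1.59, 2.35 and 1.55 at day 5 and 2.89, 2.74, 3.22 and 2.02 at day 15. Its groups overlapped only through day 5 replicate 3 and day 15 replicate 4, and the difference was 0.90 ± 0.28 (limma adjusted p = 0.745). Over the alternative fits the difference of Sgk1 was as low as 0.19, and within the shared slide it was 0.25. Fkbp5, the chaperone that dampens the glucocorticoid receptor, read 1.99, 1.78, 2.22 and 1.70 at day 5 and 2.21, 2.69, 2.84 and 1.34 at day 15. The lowest of all 8 was again day 15 replicate 4, and the difference was 0.34 ± 0.31. Without that rat 14 of 17 genes were higher and the median was 0.51, without day 15 replicate 2 it was 0.20 and without day 15 replicate 3 it was 0.16. With the slide as a fixed block in a fit of all 16 arrays, 10 of 17 were higher and the median was 0.13. Within the shared slide the median was -0.11.

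Clock genes were close to this pattern, and Per1 belongs to both lists. Of 14 measured, 11 were higher at day 15, the median difference was 0.24, and Per1 and Dbp did not overlap. Scores were -0.10, -0.24, -0.15 and 0.06 at day 5 and 0.25, 0.10, 0.08 and -0.06 at day 15, with controls from -0.01 to 0.08. The groups overlapped through day 5 replicate 4 and day 15 replicate 4. Dbp, an output gene of the clock, read 3.08, 3.00, 2.87 and 3.25 at day 5 and 3.63, 3.28, 3.26 and 3.32 at day 15, a difference of 0.33 ± 0.12 (limma adjusted p = 0.812). With the slide as a fixed block in a fit of all 16 arrays, Dbp turned to -0.11. Tef, its relative, differed by 0.24 ± 0.11, and Cry1, a core repressor, by 0.34 ± 0.15, whereas the activator Bmal1 differed by -0.02 ± 0.15. For Tef the controls (2.04 to 2.18) lay above all day 5 rats, and for Dbp day 15 lay above all controls (2.88 to 3.18). Without day 15 replicate 1 the median of the list was 0.16, and within the shared slide 0.10. The hour of collection is not given in the sources used here.

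Cytosolic chaperones were higher at day 15 in all 16 measured genes, but by little in most. The median difference was 0.18, and no gene of the 16 was without overlap. Scores were -0.02, -0.13, -0.14 and -0.04 at day 5 and 0.11, 0.27, 0.19 and -0.16 at day 15, with controls from -0.16 to -0.01. Hence 3 day 15 rats were above every control, and day 15 replicate 4 was below every day 5 rat. Hspa1a encodes the inducible heat shock protein of the cytosol. It measured 0.31, 0.49, 0.08 and -0.45 at day 5 and 1.64, 2.55, 2.09 and -0.40 at day 15, against controls from -0.09 to 0.18. Of all listed chaperones it had the widest difference, 1.36 ± 0.59 (limma adjusted p = 0.842), carried by 3 rats. Its sequence is nearly identical to that of a neighbouring copy, so the signal may come from both. Bag3, a co-chaperone that directs damaged proteins to autophagy, measured 1.49, 2.00, 1.70 and 1.80 at day 5 and 2.41, 2.42, 2.64 and 1.97 at day 15, a difference of 0.61 ± 0.16 (limma adjusted p = 0.719). Hspb1, a small heat shock protein that reactive astrocytes make, differed by 0.65 ± 0.30, and Chordc1, a partner of HSP90, by 0.43 ± 0.17. Hsph1 differed by 0.00 ± 0.16 and was below 0 in several of the alternatives tried. The count of higher genes was 14 of 16 under quantile normalization and 15 under normexp background correction. Without day 15 replicate 4 the median was 0.28, and within the shared slide, which holds that rat, only 2 of 16 were higher and the median was -0.15.

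The list of endoplasmic reticulum stress showed the same split among the day 15 rats. Of 17 genes, 10 were higher, with a median of 0.12, and Sdf2l1 alone did not overlap. Scores lay from -0.08 to -0.04 at day 5 and were 0.10, 0.16, 0.10 and -0.12 at day 15. Herpud1, a factor of protein degradation at the endoplasmic reticulum, read 1.48, 1.58, 1.56 and 1.73 at day 5 and 2.15, 2.18, 2.12 and 1.69 at day 15, a difference of 0.45 ± 0.13 (limma adjusted p = 0.739). Day 15 replicate 4 sat within the day 5 values and the other 3 were well above them. BiP itself, encoded by Hspa5, differed by 0.30 ± 0.13, Creld2 by 0.32 ± 0.12 and the proapoptotic factor Ddit3 by 0.13 ± 0.14. The genes named here were all higher at day 15. The other 7 of the 17 went lower, and the widest difference of the list, -1.08, was among those 7. Without day 5 replicate 2 the list's median was 0.06, and within the shared slide 0.01.

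**Figure D4:**
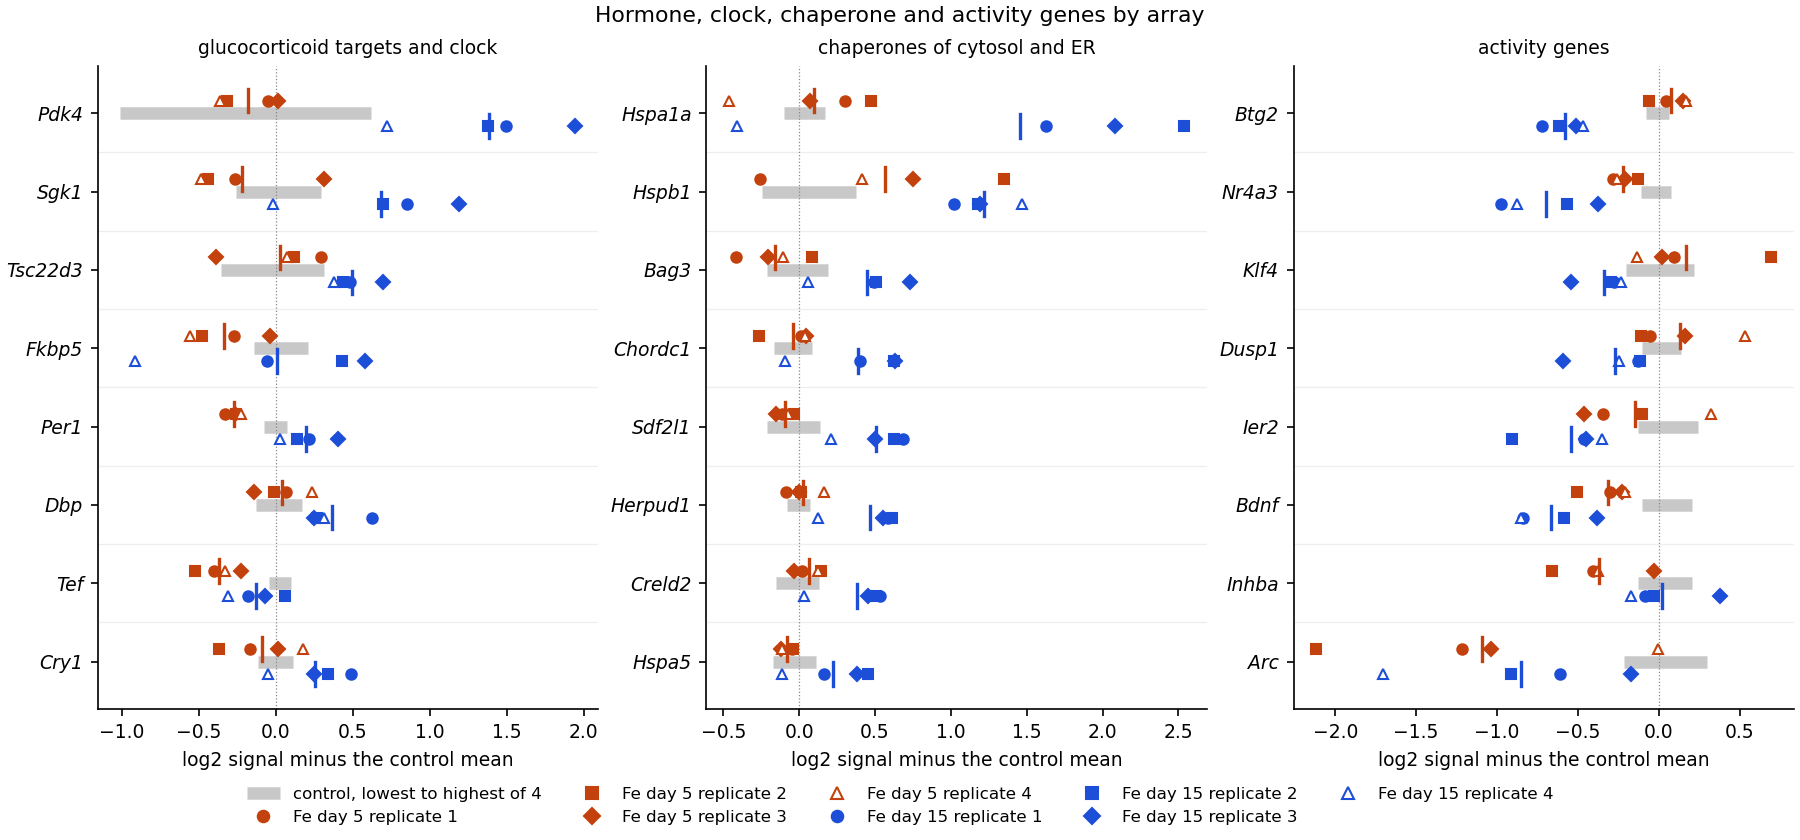
Log2 signal of each array minus the control mean (horizontal axes) for corticosteroid and clock genes, chaperones and activity genes; points are single rats, vertical bars group means and grey bars the range of the 4 controls. In Hspa1a, Herpud1 and Fkbp5 the open triangle of Fe day 15 replicate 4 lay within or below the range of the day 5 rats, and Btg2, Nr4a3 and Bdnf lay below the controls in every day 15 rat.

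Immediate early genes did not stand higher as a group at either day. Of 25 measured, 10 were higher and 15 lower at day 15, with a median of -0.12. Btg2, Nr4a3, Klf4 and Dusp1 lay wholly lower at day 15 and Per1 wholly higher. Scores were -0.03, -0.14, -0.05 and 0.42 at day 5 and -0.12, -0.05, 0.14 and -0.15 at day 15, while the controls ran from 0.23 to 0.50. Thus 7 of the 8 Fe rats scored below every control, and day 5 replicate 4 scored within their range. Without that rat 15 of 25 were higher at day 15 and the median was 0.07, and without day 5 replicate 3 it was -0.22. Fos, the classic marker of recent firing, measured -0.19, -0.37, -0.67 and 0.89 at day 5 and 0.06, -0.86, -0.56 and -0.08 at day 15, and its groups overlapped (-0.28 ± 0.35). Arc, which removes glutamate receptors from synapses, measured 3.26, 2.36, 3.44 and 4.48 at day 5 and 3.87, 3.56, 4.30 and 2.77 at day 15. Only 2 of the 8, day 5 replicate 4 and day 15 replicate 3, reached the controls (4.26 to 4.77). Its difference, 0.24 ± 0.47, turned to -0.10 without day 5 replicate 2, and that of Fos to 0.05 without day 5 replicate 4.

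Nr4a3, an orphan nuclear receptor, read 2.18, 2.33, 2.25 and 2.20 at day 5 and 1.48, 1.89, 2.08 and 1.59 at day 15, with controls from 2.35 to 2.53. The controls were highest, then day 5, then day 15, with no overlap between any of the 3, and day 15 stood -0.48 ± 0.14 from day 5 (limma adjusted p = 0.739). Klf4, a Krüppel-like factor, read -0.11, 0.50, -0.18 and -0.33 at day 5 and -0.48, -0.49, -0.74 and -0.43 at day 15, so day 15 was below all controls (-0.40 to 0.02). Its difference was -0.50 ± 0.18. Dusp1, a phosphatase that ends MAP kinase signals, and Ier2 are named for their promoters, a choice made after their values were seen. They differed by -0.40 ± 0.17 and -0.39 ± 0.19, the first without overlap.

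The later activity genes were near level, with 13 of 19 higher at day 15 and a median of 0.04. Every Fe rat, from -0.15 to 0.12, scored below every control (0.13 to 0.26). Bdnf, the neurotrophin that seizures are known to induce, measured 0.56, 0.36, 0.64 and 0.66 at day 5 and 0.03, 0.28, 0.48 and 0.02 at day 15. All 8 were below the controls (0.77 to 1.07), day 15 mostly by more, and the difference was -0.35 ± 0.13 (limma adjusted p = 0.812). A second probe gave -0.37. Inhba, a subunit of activin, went the other way, at -0.70, -0.95, -0.33 and -0.67 at day 5 and -0.38, -0.32, 0.08 and -0.46 at day 15 (0.39 ± 0.16).

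Markers of choroid plexus gave the widest median difference of any list, through 2 rats. All 12 measured were lower at day 15, with a median of -1.13, and no gene was without overlap. Scores were -0.12, 0.54, 1.81 and -0.99 at day 5 and -0.81, -0.59, -0.31 and -0.26 at day 15, and controls ran from -1.20 to -0.55. Ttr, the thyroid hormone carrier of cerebrospinal fluid, measured 1.18, 0.38, 4.60 and -0.81 at day 5 and -1.88, -0.77, 0.25 and 0.94 at day 15. Kcnj13, a potassium channel of that epithelium, measured -3.76, -0.51, -0.22 and -5.05 at day 5 and -5.72, -5.58, -4.86 and -4.01 at day 15. Fe day 5 replicate 3 carried most of Ttr, and replicates 2 and 3 most of Kcnj13, whose difference was -2.66 ± 1.08 (limma adjusted p = 0.842). Without those 2 rats 6 of 12 genes were higher at day 15 and the median was 0.01. The median was -0.64 without replicate 2, -0.56 without replicate 3 and -0.15 within the shared slide. Under normexp it was -0.59, and that of the meningeal markers, described next, was wider at -0.68.

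Meningeal and fibroblast markers followed the same 2 rats in the other order. All 20 measured were lower at day 15, with a median of -1.08, and scores were -0.87, 2.70, 1.16 and -0.79 at day 5 and -0.62, -0.50, -0.95 and -0.03 at day 15. The other 6 rats were near the controls (-1.05 to -0.97) or above them. Col1a1, a chain of type I collagen, read 0.05, 4.26, 2.48 and -0.09 at day 5 and 0.05, 0.24, -0.11 and 1.30 at day 15. Day 5 replicates 2 and 3 were far above the rest, and the difference of -1.31 ± 0.94 turned to 0.39 without them. Dcn, a small proteoglycan that binds collagen, read 2.69 in replicate 2 and from 0.61 to 0.91 in the other day 5 rats. Without replicates 2 and 3, 14 of 20 genes were higher at day 15, with a median of 0.21, and the median was -0.39 without replicate 2 alone and 0.67 within the shared slide. Pdgfra, a receptor of fibroblasts and oligodendrocyte precursors, alone of the 20 did not overlap. It read 1.73, 2.38, 1.80 and 1.68 at day 5 and 1.29, 1.44, 1.40 and 1.46 at day 15, the latter near the controls (1.36 to 1.56), a difference of -0.50 ± 0.16 (limma adjusted p = 0.754).

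Matrix genes were highest in the same rat as the meningeal markers, day 5 replicate 2, and the part of the border tissue in them was not tested. Of 14 measured, 2 were higher and 12 lower at day 15, with a median of -0.44 that was -0.05 without day 5 replicate 2. Within the shared slide 11 of 14 were higher, with a median of 0.56. Ccn1, a matrix protein quickly induced by growth factors and stretch, was the gene without overlap. It measured -2.93, -2.38, -3.56 and -3.23 at day 5, all above the controls (-4.38 to -3.77), and -5.16, -4.78, -4.97 and -3.67 at day 15. The first 3 day 15 rats lay below all controls and replicate 4 above them, and the difference was -1.62 ± 0.36 (limma adjusted p = 0.671). Without day 5 replicates 2 and 3 it was -1.56, and its second probe gave -0.72. Over the alternative fits the difference of Ccn1 ran from -1.94 to -0.69, and within the shared slide it was -0.73. Mmp14, a membrane protease that cuts collagen, read 0.23, 2.30, 1.23 and 0.32 at day 5 and -0.96, -1.79, -0.65 and 1.01 at day 15 (-1.62 ± 0.66). Mmp2, which it activates, read between -1.03 and -0.79 at day 5 and -1.63, -1.55, -1.64 and -0.63 at day 15. The difference of Mmp2 was -0.47, but its second probe gave only -0.08. In both genes day 15 replicate 4 was apart from the other 3, which were below the controls.

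Ependymal, vessel and blood genes differed less. Of 9 ependymal genes 2 were higher and the median was -0.29, which ran from -0.61 without day 5 replicate 4 to -0.06 without day 15 replicate 4, with Mia at 0.96 ± 0.29 and the ciliary master factor Foxj1 at 0.27 ± 0.28. Of 16 endothelial genes 13 were lower, with a median of -0.13 that was -0.05 without day 5 replicate 2 and 0.07 without day 5 replicates 2 and 3. Kdr, the main receptor of vascular endothelial growth factor, read 1.77, 2.21, 2.01 and 2.08 at day 5 and 1.67, 0.87, 1.06 and 1.75 at day 15. Replicates 2 and 3 of day 15 were well below the controls (1.62 to 2.09), while replicates 1 and 4 were inside, and the difference was -0.68 ± 0.21 (limma adjusted p = 0.754). Within the shared slide it was -0.01. Among the 3 endothelial genes higher at day 15 were 2 transporters of the blood-brain barrier, Abcg2 by 0.62 ± 0.21 and the glucose carrier Slc2a1 by 0.24 ± 0.09. The list also held the transporters Abcb1a and Slco1a4, which were not both higher. Pericyte and muscle genes had a median of -0.19 over 12, which was 0.12 without day 5 replicates 2 and 3 and 0.12 within the shared slide. Blood genes had no settled direction: 4 of 8 were higher, and the median of -0.22 was 0.07 without day 15 replicate 1, 0.03 over the 7 genes above background on all 8 arrays and 1.34 within the shared slide. S100a8, an antimicrobial protein of neutrophils, read -5.02, -4.44, -5.42 and -5.14 at day 5 and -6.40, -5.68, -6.25 and -5.45 at day 15. All 8 were above the control range of -8.43 to -6.13 except day 15 replicates 1 and 3, which lay inside it. The probe was dim, above background on all day 5 arrays, 3 day 15 arrays and 1 control array, and the difference of -0.94 ± 0.27 was -0.07 under normexp. Its partner S100a9 differed by -0.54 ± 0.24. Hbb, a hemoglobin chain with near-identical copies, was above the controls (-0.47 to -0.02) in 3 day 15 rats and 2 day 5 rats and differed by 0.41 ± 0.41.

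Microglial and immune genes were set by 1 day 15 rat. Of 20 microglial and macrophage genes 10 were higher and 10 lower, with a median of 0.02. Scores were 0.10, 0.01, -0.05 and -0.33 at day 5 and -0.31, -0.38, -0.31 and 0.94 at day 15, with controls from -0.33 to 0.03. The first 3 day 15 rats thus lay at or just below the low end of the controls and replicate 4 above every other rat. Aif1, a cytoskeletal protein of microglia, read from 2.65 to 2.96 in day 5 replicates 1, 3 and 4, slightly more in replicate 2, and 2.40, 2.44, 2.50 and 3.56 at day 15. Cx3cr1, the microglial fractalkine receptor, read -1.46, -1.78, -1.65 and -1.88 at day 5 and -2.14, -2.20, -2.08 and -1.20 at day 15. In both genes 3 day 15 rats lay below all day 5 rats and all controls, and the fourth above them. Without day 15 replicate 4 only 3 of 20 genes were higher at day 15 and the median was -0.41, while within the shared slide all 20 were higher, with a median of 0.77. Spp1, osteopontin of activated phagocytes, measured -4.48, -3.15, -3.03 and -3.91 at day 5 and 1.57, -4.36, -2.76 and 2.12 at day 15. Day 15 replicates 1 and 4 were far above all others, and the difference, the widest among the named genes, was 2.78 ± 1.40 (limma adjusted p = 0.865).

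Complement, antigen presentation and cytokine genes divided the rats alike. Complement scores were -0.13, 0.46, 0.05 and -0.31 at day 5 and -0.28, -0.29, -0.33 and 0.79 at day 15, with 7 of 17 genes higher and a median of -0.03. The median was -0.35, with 3 of 17 higher, without day 15 replicate 4 and 0.18, with 13 of 17 higher, without day 5 replicate 2. C3, the central complement protein, read from 0.25 to 1.23 at day 5 and 0.60, 0.53, 0.48 and 3.50 at day 15. Only that rat was above the controls (0.23 to 1.28), and the difference of 0.57 ± 0.67 turned to -0.17 without it. For antigen presentation and interferon targets the scores were -0.48, 0.46, 0.44 and -0.54 at day 5 and -0.11, -0.34, -0.61 and 1.11 at day 15, with 12 of 26 higher. Cd74, the invariant chain of class II molecules, read -0.47, 1.83, 0.15 and -1.86 at day 5 and -2.18, -1.74, -1.57 and 1.04 at day 15. High values were found in day 5 replicates 2 and 3, the rats with meningeal markers, and in day 15 replicate 4. RT1-Da, a class II gene with close relatives, followed it, at -1.43 ± 0.99, which was -0.70 without day 5 replicate 2 and -2.13 without day 5 replicate 4. Without day 15 replicate 4 only 3 of 26 were higher, with a median of -0.37, whereas without day 5 replicates 2 and 3 there were 25 of 26, with a median of 0.39.

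Cytokine scores were 0.03, 0.51, 0.18 and -0.35 at day 5 and -0.42, -0.26, -0.37 and 0.59 at day 15, with 5 of 19 genes higher and a median of -0.13. Ccl2, which draws monocytes, read -3.54, -2.84, -4.10 and -4.73 at day 5 and -5.10, -6.64, -6.58 and -1.52 at day 15. It was above background on only 2 of the day 15 arrays, the highest value of all 8 being that of day 15 replicate 4. Il1b, a cytokine of activated microglia, read -4.04, -3.05, -3.92 and -4.02 at day 5 and -4.39, -4.99 and -5.27 in the first 3 day 15 rats. Day 15 replicate 4 was close to the highest day 5 rat, and the difference of -0.68 ± 0.46 was -1.12 without day 15 replicate 4 and -0.40 without day 15 replicate 3. Ccl19, a lymphoid chemokine, read -1.61, 2.83, 0.98 and -1.23 at day 5 and between -1.42 and -1.17 at day 15, so that it followed the meningeal markers. Without day 15 replicate 4 there were 2 of 19 cytokine genes higher and the median was -0.42. Within the shared slide the medians were 0.92 for complement, 1.38 for antigen presentation and 0.56 for cytokines.

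**Figure D5:**
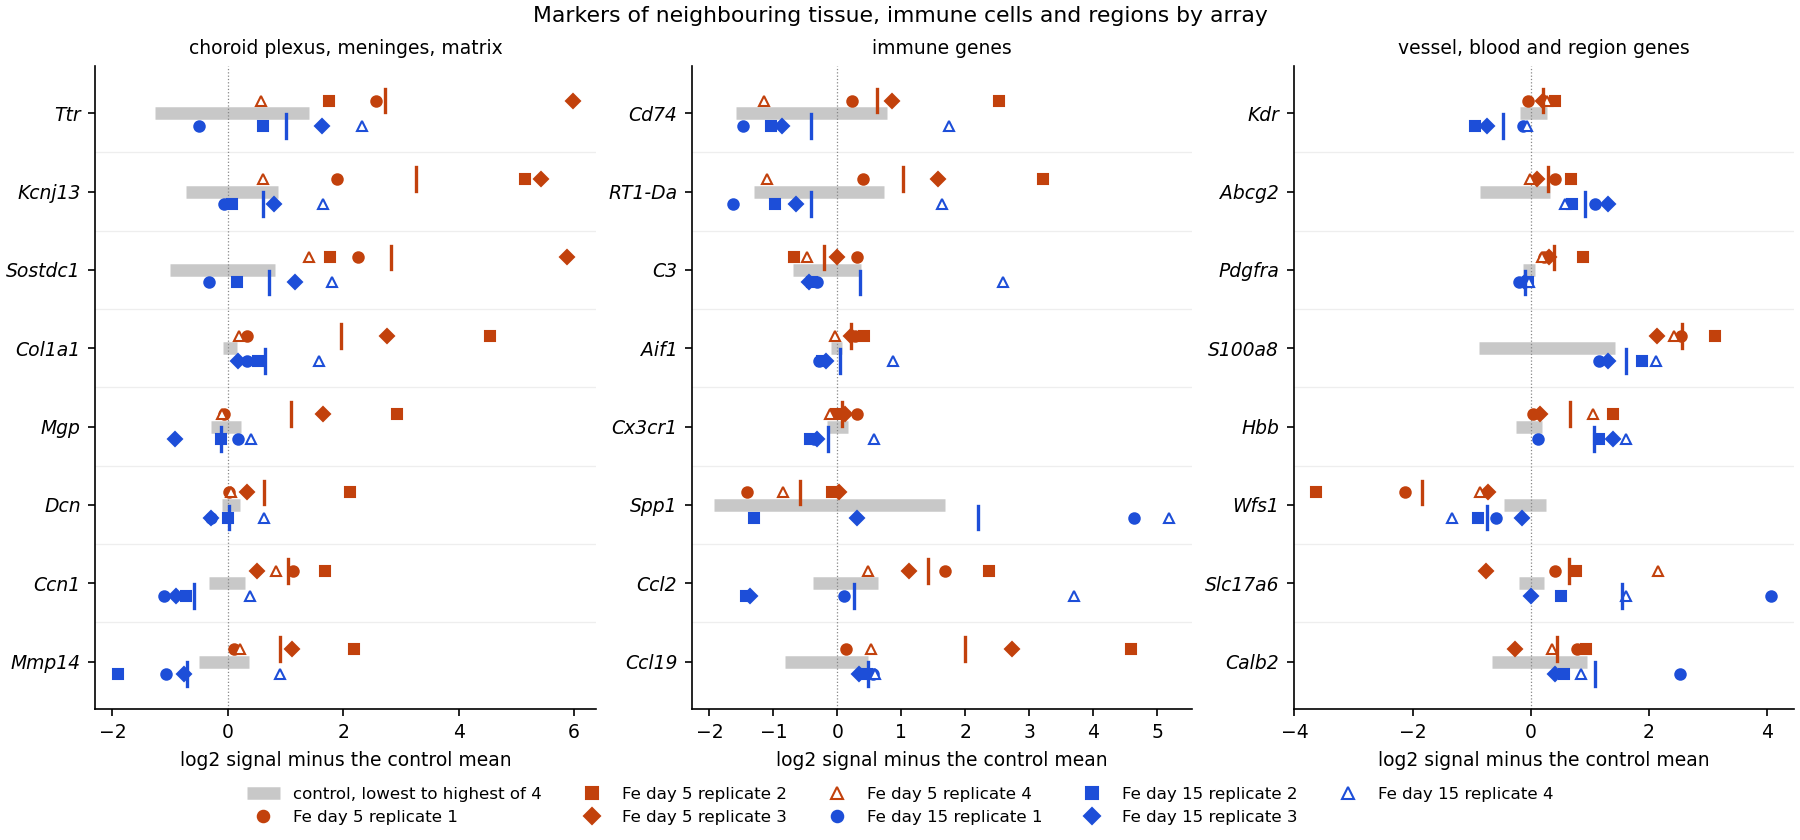
Log2 signal of each array minus the control mean (horizontal axes) for markers of border tissue and matrix, immune genes, and vessel, blood and region genes; points are single rats, vertical bars group means and grey bars the range of the 4 controls. Fe day 5 replicates 2 and 3 (filled square and diamond) led Kcnj13, Col1a1 and Ccl19, Fe day 15 replicate 4 (open triangle) led C3, Aif1 and Cx3cr1, and Fe day 15 replicate 1 (filled circle) led Slc17a6 and Calb2.

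Astrocyte genes were near level between the days. Of 20 measured, 13 were higher, with a median of 0.04, and day 15 replicate 4 had the highest score at 0.46. Gfap, the intermediate filament of astrocytes, read 1.51, 1.35, 0.94 and 1.27 at day 5 and 1.83, 1.29, 0.98 and 1.82 at day 15, within the control range of 0.75 to 2.11 (0.21 ± 0.22). Ndrg2, abundant in resting astrocytes, was the gene of this list without overlap (0.20 ± 0.09), but its difference was -0.01 under quantile normalization. Myelin genes had 11 of 16 higher and a median of 0.05 that was -0.07 without day 5 replicate 2 and 0.22 without day 5 replicate 4. With the slide fixed 3 of 16 were higher. With the position on the slide as a term 0 of 16 were, with a median of -0.44. That last fit sets the day 15 mean against day 5 replicate 4 alone, the rat with the highest myelin score, 0.51. Mbp, a main protein of myelin, differed by 0.26 ± 0.25, and Nkx6-2 of mature oligodendrocytes by -0.52 ± 0.28. For Nkx6-2 another probe of the gene disagreed in sign.

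Among genes of new neurons and dividing cells, 11 of 18 were higher and the median was 0.07. Every day 15 rat (0.02 to 0.12) and every day 5 rat (-0.08 to 0.04) scored above the controls (-0.33 to -0.07) except day 5 replicate 3, whose -0.08 lay inside that range. Igfbpl1, made by immature neurons, read -2.01, -1.99, -2.08 and -2.44 at day 5 and -0.99, -1.74, -1.79 and -1.72 at day 15, a difference of 0.57 ± 0.20 without overlap (limma adjusted p = 0.786). Its day 15 values were all above the controls (-2.56 to -2.05). Sox11, a factor of the same stage, differed by 0.43 ± 0.19 and was above the controls in all Fe rats but day 5 replicate 3. Dcx of migrating neurons differed by -0.01 ± 0.23, and the mitotic cyclin Ccna2 by -0.36 ± 0.15.

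Markers of the hippocampal fields differed more among rats of a day than between days. Dentate scores were 0.04, -0.62, 0.50 and 0.11 at day 5 and 0.07, 0.20, 0.23 and -0.38 at day 15, with 3 of 8 genes higher. CA1 and subiculum scores were -0.23, -0.41, -0.20 and 0.38 at day 5 and -0.07, 0.22, 0.11 and 0.05 at day 15, with 5 of 10 higher. Day 5 replicate 2 was lowest in both. Wfs1, an endoplasmic reticulum protein of CA1 cells, read 0.82, -0.68, 2.23 and 2.10 at day 5 and 2.37, 2.05, 2.80 and 1.62 at day 15, and only day 15 replicate 3 reached the controls (2.51 to 3.21). Its difference of 1.09 ± 0.62 was 0.49 without day 5 replicate 2. CA3 genes had 2 of 11 higher and a median of -0.20 that was -0.04 without day 5 replicate 2. Slc17a6, the glutamate transporter of thalamic and other subcortical neurons, read -0.47, -0.11, -1.63 and 1.27 at day 5 and 3.19, -0.36, -0.87 and 0.75 at day 15. Calb2 and Tac1 were also highest in day 15 replicate 1, at 3.97 and 2.20, and that rat had the highest score of the list of thalamus and neighbouring regions (0.47). The part of the dissected region in the other results was not tested.

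General neuronal, glutamate, GABA and vesicle genes held no gene without overlap. Over 12 general neuronal genes the median difference was -0.02, with single genes from -0.18 to 0.33. Glutamate receptors and transporters had a median of 0.04 over 20 genes, from -0.30 to 0.38, and GABA genes 0.01 over 17, from -0.36 to 0.27. Synaptic vesicle genes had a median of 0.03 over 22, from -0.32 to 0.27, with Snap25 of the fusion machinery at -0.03 ± 0.08. Gria2, the subunit that keeps AMPA receptors closed to calcium, differed by -0.13 ± 0.14. Interneuron and neuropeptide genes had 10 of 18 higher and a median of 0.03. Among 32 voltage-gated channel genes, 21 were higher and the median was 0.07. Cacna1e, the pore of R-type calcium channels, read -0.25, -0.58, -0.18 and -0.61 at day 5 and -0.06, 0.02, 0.19 and -0.11 at day 15. It did not overlap (0.42 ± 0.13; limma adjusted p = 0.745), though 6 of the 8 rats lay in the control range of -0.33 to 0.28, and its 3 other probes gave differences from 0.21 to 0.30. Kcna4, an A-type potassium channel, differed by -0.45 ± 0.17.

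Iron and antioxidant genes held few differences, although iron was the agent. Of 14 iron genes 8 were higher, with a median of 0.01. Hmox1, which frees iron from heme, read -1.26, -1.10, -1.05 and -1.45 at day 5 and -0.98, -0.75, -0.91 and -0.36 at day 15, with controls from -1.29 to -0.93. It did not overlap, at 0.46 ± 0.15 (limma adjusted p = 0.765), and the highest value was that of day 15 replicate 4. The ferritin chains Fth1 and Ftl1, which store iron, differed by 0.01 ± 0.14 and 0.19 ± 0.11, and another probe of Fth1 disagreed in sign. Cp, the ferroxidase ceruloplasmin, read -4.72, -1.64, -2.82 and -4.75 at day 5 and from -5.51 to -3.30 at day 15, with its highest values in the rats of high meningeal scores. Its difference of -1.08 ± 0.77 turned to 0.17 without them. Of 23 antioxidant genes 13 were higher and the median was 0.02. Gclc, the first enzyme of glutathione synthesis, read -2.50, -2.62, -2.56 and -2.61 at day 5 and -2.75, -2.88, -2.85 and -2.87 at day 15. It was lower without overlap by a small step, -0.27 ± 0.07 (limma adjusted p = 0.719), with all day 15 rats below the controls (-2.64 to -2.42). Nqo1, a quinone reductase of the same response, differed by -0.24 ± 0.12.

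Lipid genes were as level. The medians were -0.02 over 22 genes of cholesterol synthesis, 0.04 over 21 of fatty acid synthesis, -0.02 over 23 of fatty acid oxidation, 0.06 over 18 of lipid transport and 0.00 over 21 of sphingolipids. Fdft1, the first enzyme committed to sterols, read from -0.03 to 0.02 at day 5 and from -0.25 to -0.15 at day 15. That step of -0.19 ± 0.07 was without overlap, and both groups lay inside the control range of -0.34 to 0.13. Insig1, which holds back sterol synthesis, differed by -0.34 ± 0.15. Ppard, a fatty acid sensor that controls Pdk4 in muscle, read -4.59, -4.76, -4.57 and -4.80 at day 5 and -4.34, -4.22, -4.47 and -4.35 at day 15. It was higher without overlap by 0.34 ± 0.09 (limma adjusted p = 0.719), while Cpt1a and Cpt2, which carry fatty acids into mitochondria, differed by -0.09 ± 0.11 and 0.12 ± 0.08. Eicosanoid genes had 11 of 24 higher and a median of -0.07. Pla2g2a, a secreted phospholipase of inflammation, read -5.09, -3.60, -3.58 and -5.42 at day 5 and -5.96, -4.56, -8.38 and -7.31 at day 15, and it was above background on all day 5 arrays but on only 2 at day 15. The difference between the measured means, -2.13, was -0.34 under normexp. The medians of 23 respiratory chain and 23 ribosomal protein genes were -0.01 and 0.04, and the latter was 0.00 under quantile normalization.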

How the data were processed

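The members of the comparison and the gene lists were chosen with earlier results of these data known. Per the file headers, the authors' deposited scanner files give a processed signal for each spot, a linear intensity from which local background and a spatial trend had been removed, read with Agilent Feature Extraction 9.5.3.1 (9.5 per the submitters' processing notes) from Cy3-labelled 1-colour arrays. RNA integrity numbers were above 8.1 per the labels. The deposited value table equalled the processed signal in 100% of entries (relative tolerance 1e-06) and was not run separately. Each array held 43379 transcript spots and 1639 control spots, which were left out, as were spots with either of the software's outlier marks (uneven pixels, or apart from their replicate spots). Spots of a probe were averaged, giving 41012 probes, of which 62 were dropped for such marks. Before marked spots were left out and spots averaged, the array's 75th percentile over all transcript spots was taken off the log2 of each signal. A probe was kept where every array of the day 5 or of the day 15 group marked it as well above background (30284), and for 2199 genes with several probes the one of highest mean was used. Of 16116 probes with a RefSeq mRNA accession, 15080 were named through a RefSeq table on GRCr8, used for names only, since the headers give rn4. That left 27628 features, 18110 of them without a symbol.

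The groups were fitted with lmFit and eBayes of limma 3.58.1 in R 4.3.3, two-sided, with Benjamini-Hochberg adjustment over all features. Named genes were those called, filled up to 12 a direction with the genes of lowest p whose groups did not overlap, and in each list the first 2 measured members and up to 4 of lowest p; the text names part of the latter, and gives the rest by counts and ranges. Dusp1 and Ier2 lay outside the rule. For Vom1r90, dim values were raised to the lowest signal well above background on each array, which is not the probe's own limit. The fitting code was tested on simulated data. Alternatives covered the filter, the background correction (normexp on the median pixel intensity, offset 50, since the deposited files hold no mean pixel column used here), the scaling, array weights, the slide, the replicate number and leaving out each rat. After the data were seen, 3 were added, namely the position on the slide, the single pair within a slide, and leaving out Fe day 5 replicate 2 with Fe day 15 replicate 4. Files of the day 30 arrays entered only fits of all 16 arrays.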

Additional observations from a re-analysis of the deposited data

Results flagged for a closer look

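A rat far from the other 3 of its group (a gap to the nearest above Dixon's critical value for 4 samples) was found in 22 of 294 groups tested (7.48%), where chance gives about 1 in 20. Fe day 15 replicate 4 was the rat in 14 of the 22, Fe day 5 replicate 2 in 5, Fe day 15 replicate 1 in 2 and Fe day 5 replicate 1 in 1.

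Fe day 15 replicate 4 was above the other day 15 rats for the immune genes C3 (3.50), Aif1 (3.56) and Cx3cr1 (-1.20), for the ferritin chain Ftl1 (6.86), for the protease Mmp2 (-0.63) and for the cyclin Ccna2 (-4.03). It was below them for Herpud1 (1.69), Creld2 (-0.19) and Marchf7 (-1.98). Its scores were the highest of its day for microglia and macrophages (0.94), complement (0.79), cytokines and chemokines (0.59) and neurogenesis and proliferation (0.12). For late activity genes and neurotrophins its score of -0.15 was the lowest.

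Fe day 5 replicate 2 was above the other day 5 rats for the fibroblast genes Dcn (2.69) and Pdgfra (2.38) and for Il1b (-3.05), and below them for Chordc1 (2.91) and in the score of voltage-gated channels (-0.14). Fe day 15 replicate 1 was highest for Dbp (3.63) and Igfbpl1 (-0.99). Fe day 5 replicate 1 had the highest day 5 score of endoplasmic reticulum stress (-0.042).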

How the results depend on the processing

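The count of called features was 0 in every fit but 2. Without Fe day 15 replicate 4 it was 3, all probes without a gene symbol and at an adjusted p of 0.0375, with differences of 1.32, 2.51 and -1.88. With the position on the slide as a term it was 3, of which Or6f1 alone had a symbol, and that fit contrasts position through Fe day 5 replicate 4 alone. All day 15 arrays lay at position 2, so the day difference of the position fit is their mean minus Fe day 5 replicate 4 alone. Leaving out each rat in turn gave from 0 to 3. The lowest adjusted p was 0.176 in a model of all 16 arrays, 0.125 with array weights, 0.448 with normexp, 0.464 with quantile normalization, 0.761 without the filter and 0.0948 without Fe day 5 replicate 2 and Fe day 15 replicate 4. Under normexp 926 features were higher and 402 lower at an unadjusted p under 0.05. Depth of signal limits dim probes such as those of Pdk4, Ccl2 and Pla2g2a.

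The replicate block gave 0 called features and a lowest adjusted p of 0.941. Deviations of same-numbered rats correlated at -0.12, -0.07, 0.38 and -0.15, which does not settle whether the numbers pair the samples. With these 8 arrays neither a fixed nor a random slide block could be fitted. In the 16 arrays they gave 0 called each, at lowest adjusted p of 0.905 and 0.15 (correlation within a slide 0.07). Each slide has its own scan, which was not run separately.

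Of 106 genes, 101 were followed through 22 fits and 5 dim ones through 21; 81 kept their direction in every fit run, and 29 had the opposite sign within the shared slide. Ndrg2 was -0.013, Fth1 -0.040 and Hsph1 -0.0031 under quantile normalization. Hsph1 was also -0.041 with normexp, -0.0071 with the percentile over detected probes and -0.0027 with the random slide. With the slide fixed, Dbp was -0.11, Arc -0.043, Foxj1 -0.25, Igfbpl1 -0.098, Bmal1 0.16, Hsph1 -0.043, Dcx 0.10, Snap25 0.071 and Cpt1a 0.10. Without Fe day 5 replicates 2 and 3, Arc was -0.24, Col1a1 0.39, Cd74 0.052, Ccl19 0.15, Hsph1 -0.058, Dcx 0.034 and Cp 0.17. With the position as a term, Arc was -0.85, Ttr 0.44, Kcnj13 0.0068, Col1a1 0.46, Aif1 0.072, Cd74 0.74, RT1-Da 0.69, Prox1 -0.033 and Slc17a6 -0.60, and Hsph1 -0.16, Mbp -0.10, Dcx 0.31, Fth1 -0.0025, Cp 0.19 and Nqo1 0.058. Without Fe day 5 replicate 2 and Fe day 15 replicate 4, C3 was -0.33 and Fth1 -0.012. Over single rats left out, Arc ran from -0.10 to 0.60, Prox1 from -0.19 to 0.40, C3 from -0.17 to 0.83, Fos from -0.47 to 0.046, Bmal1 from -0.17 to 0.070, Hsph1 from -0.081 to 0.13, Dcx from -0.16 to 0.13, Snap25 from -0.066 to 0.011 and Fth1 from -0.085 to 0.11. Sizes moved by over 1.5 times without a change of sign in 23 of the 106 genes under normexp, 34 with the slide fixed and 36 with the position as a term. Of the 41 list medians, 6, 13 and 20 changed sign under these 3 settings, the last with day 5 resting on Fe day 5 replicate 4 alone. The cause was not tested.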
